A study of Platycodon grandiflorus with 6 samples.

Results

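The genes described here are the unigenes of *Platycodon grandiflorus* (balloon flower) whose best SwissProt match carries the name of an enzyme of phytosterol or brassinosteroid synthesis. Unigenes are contigs assembled from the reads, so 1 gene can appear as several unigenes. The rule on the SwissProt name, with unigenes that match peanut (Arachis) in the NR database left out, found 116 of 152777 unigenes. They fall into 57 assembly clusters or single unigenes and into 18 enzyme classes. The series compared callus with leaves by mRNA sequencing of 6 libraries. Callus (replicates 4, 5 and 6) was grown for 50 days from pieces of stem that carried a node, on Murashige and Skoog medium with the auxin NAA at 1.0 mg/L and the cytokinin 6-BA at 0.5 mg/L. Leaves (replicates 1, 2 and 3) were taken from the plants themselves, and the study's methods state that explants and leaves came from the same plantlets and that each tissue had 3 independent biological replicates. No transgene or mutation is named for either tissue. The purpose of the sequencing was to compare the expression of biosynthetic genes between the 2 tissues.

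Plants make sterols from cycloartenol, a product of the same squalene route that also feeds triterpenoid saponins. The ring system is trimmed of methyl groups and its double bonds are moved, while methyltransferases extend the side chain, and the products sitosterol, stigmasterol and campesterol go into membranes. Campesterol is also the starting material of the brassinosteroids, hormones of cell expansion and division that are made by a 5-alpha-reductase and a set of cytochrome P450 enzymes and are inactivated by another P450.

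The expected counts, which are estimates of read pairs per unigene, summed to between 18546158 and 19444638 in callus libraries and to between 17963458 and 18669613 in leaf libraries. Leaf markers (photosystem, light-harvesting, oxygen-evolving and Rubisco small subunit genes) summed to 12516 to 12987 FPKM in callus, against 33928 to 43008 FPKM in leaves, so callus still held much of that RNA. Of 112 tested unigenes of this list, 1 was higher and 50 were lower in callus, and 6 of its 138 unigenes were at 0 in all callus libraries. Among 119 tested unigenes of a list matched to names linked with cell division, 29 were higher and 12 lower in callus. The list summed to 784 to 991 FPKM in callus, against 610 to 763 FPKM in leaves. Its name part cyclin-D, which also matches all cyclin-dependent kinase names, held 116 of its 154 unigenes and most of that sum. That part summed to 698, 868 and 767 FPKM in callus and to 721, 707 and 572 FPKM in leaves, and the tissues overlapped. It gave 16 higher calls and all 12 lower calls, of 90 tested. Mitotic cyclins summed to 17.8, 35.2 and 30.6 FPKM in callus and to 13.1, 10.7 and 14.7 FPKM in leaves (4 higher and 0 lower of 7 tested). Replication licensing factors (MCM) gave 4 higher and 0 lower of 9, and proliferating cell nuclear antigen 5 and 0 of 13. Peanut-named unigenes held 0.178% to 0.186% of the counts in callus libraries, against 1.17%, 0.347% and 0.250% in leaf replicates 1, 2 and 3. The part of these marker differences in the results on sterol genes was not tested. In such bulk samples, fewer cells of a type and less RNA per cell cannot be told apart.

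The sterol and brassinosteroid unigenes were, in sum, more abundant in callus. Their FPKM values added up to 849.5, 802.9 and 818.1 in callus replicates 4, 5 and 6, against 307.9, 298.7 and 406.5 in leaf replicates 1, 2 and 3, and the tissues did not overlap. Counts above 0 were found for 113 of the 116 in some library and for 70 in all 6, and 86 passed the filter on low counts and were tested. At the threshold used here (adjusted p no larger than 0.05), 33 of these were higher in callus, where 14.2% of all 66307 tested unigenes were, and 1 was lower, where 12.3% were. The other 52 did not pass the test. The fitted log2 fold change of callus over leaf had a positive sign in 59 and a negative sign in 27 of the 86, with a median of 1.34, also with unigenes at 0 in leaves set to their lower bound, against -0.10 over all tested unigenes. In 48 of the 86 the lowest callus library exceeded the highest leaf library in FPKM (28.4% of all tested unigenes), and in 7 the highest callus library was under the lowest leaf library (25.5% of all).

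The count of 33 rests on all callus libraries. Without callus replicate 4, 5 or 6 it was 10, 5 or 3, and without leaf replicate 1, 2 or 3 it was 30, 25 or 28. The single unigene that was lower, Unigene17134_All, lost its call without leaf replicate 2 and without each callus library. The number of lower calls was then 0 without callus replicate 4 or 6, and without callus replicate 5 or leaf replicate 2 it was 1, of another unigene. Leaving out leaf replicate 1 gave 2 such calls. With an adjusted p of 0.001 and a 2-fold change, the thresholds of the study's methods, edgeR called 0 unigenes of the 66307. DESeq2 at those thresholds called 23 higher and 1 lower, against 7.44% and 5.42% of all unigenes with an adjusted p. At an unadjusted p under 0.05 in edgeR, 37 of the sterol and brassinosteroid unigenes were higher and 4 lower. No share of all tested unigenes was computed at an unadjusted p, so such counts, here and below, cannot be set against one.

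Because reads that match several contigs are shared among them, the counts were also added up per enzyme and tested in place of the single unigenes. Of 18 enzyme sums, 10 were called higher in callus, where 14.2% of all rows of that fit were, and 0 were lower, where 12.3% were. All other rows of that fit are single unigenes, so these shares are no like measure for sums. With counts summed over assembly clusters, 22% of all clusters or single unigenes tested were higher and 20.8% lower. At an unadjusted p under 0.05, 13 sums were higher and 0 lower, and DESeq2 at an adjusted p of 0.05 called 12 higher and 0 lower. In the DESeq2 fit of single unigenes, 14.6% and 14.9% of those with an adjusted p were called. In 14 of the 18 all callus libraries were above all leaf libraries, and in the other 4 (STE1, DET2, CYP90B and CYP90D) the tissues overlapped. Of all single tested unigenes 28.4% were above and 25.5% below in this way, and no such share was computed for sums. Without callus replicate 5 the count of 10 fell to 2, and without callus replicate 6 to 1, while without callus replicate 4 it was 8.

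**Figure D1:**
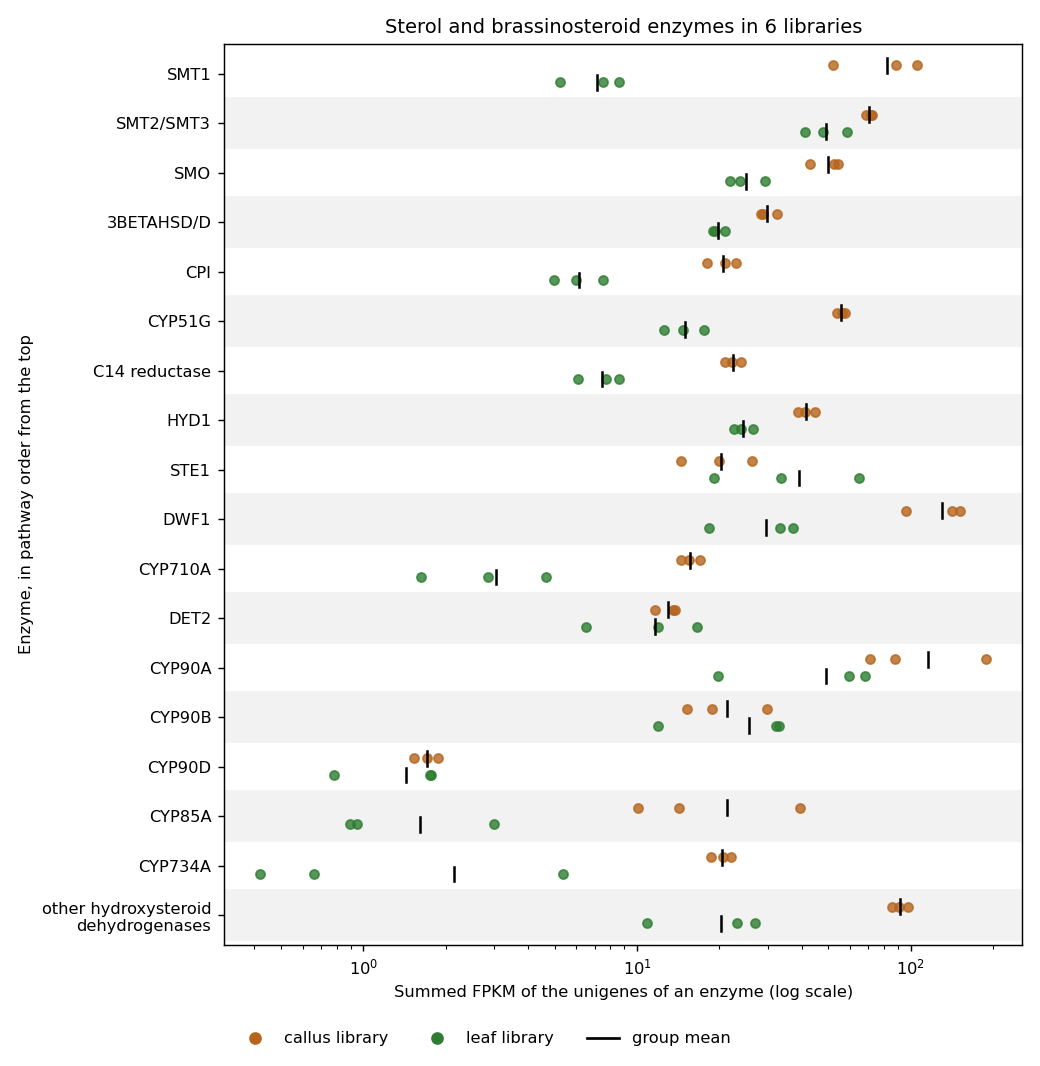
Summed FPKM (log axis) of the unigenes of each of the 18 enzyme classes, in pathway order from the top, with 1 point per library (callus above leaf in each row) and a black line at each group mean. The callus points lie to the right of all leaf points in 14 classes (28.4% of all single tested unigenes, with no such share computed for sums). Gaps are wide for SMT1, CYP85A and CYP734A, and the groups overlap for STE1, DET2, CYP90B and CYP90D.

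SMT1, the methyltransferase that adds the first extra carbon to the side chain of cycloartenol, was among the enzymes with the largest difference. Its 4 unigenes, all of assembly cluster CL9969, summed to 52.0, 88.5 and 105 FPKM in callus replicates 4, 5 and 6, against 5.21, 7.52 and 8.63 FPKM in leaf replicates 1, 2 and 3. The lowest callus library was far above the highest leaf library. The log2 fold change of the sum was 3.51 ± 0.37 (SE; adjusted p = 0.0054), and it passed the test without any 1 library. A pair of contigs carried the difference. CL9969.Contig3_All had 29.5, 52.9 and 62.1 FPKM in callus and 4.57, 7.52 and 7.55 FPKM in leaves (log2 fold change 2.85 ± 0.38, adjusted p = 0.0080, and 0.054 without callus replicate 6). CL9969.Contig2_All had 17.8, 35.6 and 41.9 FPKM in callus and 0 counts in all leaf libraries. With 3 counts taken as the floor for the leaf group, this contig was at least 891-fold higher in callus (adjusted p = 0.0055). Both contigs were thus higher in callus, and 1 of them had no counts in leaves.

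SMT2 and SMT3 add a further carbon to the side chain and so direct material towards sitosterol. The 7 unigenes of this name summed to 68.5, 71.6 and 71.9 FPKM in callus, against 41.0, 47.9 and 58.5 FPKM in leaves. The tissues did not overlap, but the sum did not pass the test (log2 fold change 0.69 ± 0.23, adjusted p = 0.069). Within cluster CL7102 the contigs differed. CL7102.Contig1_All had 30.9, 37.6 and 39.6 FPKM in callus and 0.71, 1.82 and 1.64 FPKM in leaves (log2 fold change 4.67 ± 0.46, adjusted p = 0.0049). CL7102.Contig4_All had 18.5, 18.8 and 13.9 FPKM in callus and 15.6, 19.2 and 29.2 FPKM in leaves, and its libraries overlapped (log2 fold change -0.32 ± 0.32, adjusted p = 0.48). Summed over its 4 contigs the cluster was higher in callus (log2 fold change 1.02 ± 0.27, adjusted p = 0.025), so the small negative value of CL7102.Contig4_All has the opposite sign to its cluster.

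The other 3 unigenes with the SMT2 name stand in no sterol pathway in their KEGG entries, and their KEGG or NR matches are to arsenite methyltransferase or methyltransferase-like proteins. One of them, Unigene17134_All, was the only called unigene that was lower in callus, with 5.73, 3.95 and 6.16 FPKM in callus and 18.8, 15.3 and 12.3 FPKM in leaves. The tissues did not overlap, and the log2 fold change was -1.55 ± 0.34 (adjusted p = 0.024). That call was lost without leaf replicate 2 and without each callus library (adjusted p of 0.050 to 0.095). With only the 4 unigenes mapped to sterol synthesis, the SMT2/SMT3 sum had a log2 fold change of 1.11 and passed the test (adjusted p = 0.039).

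**Figure D2:**
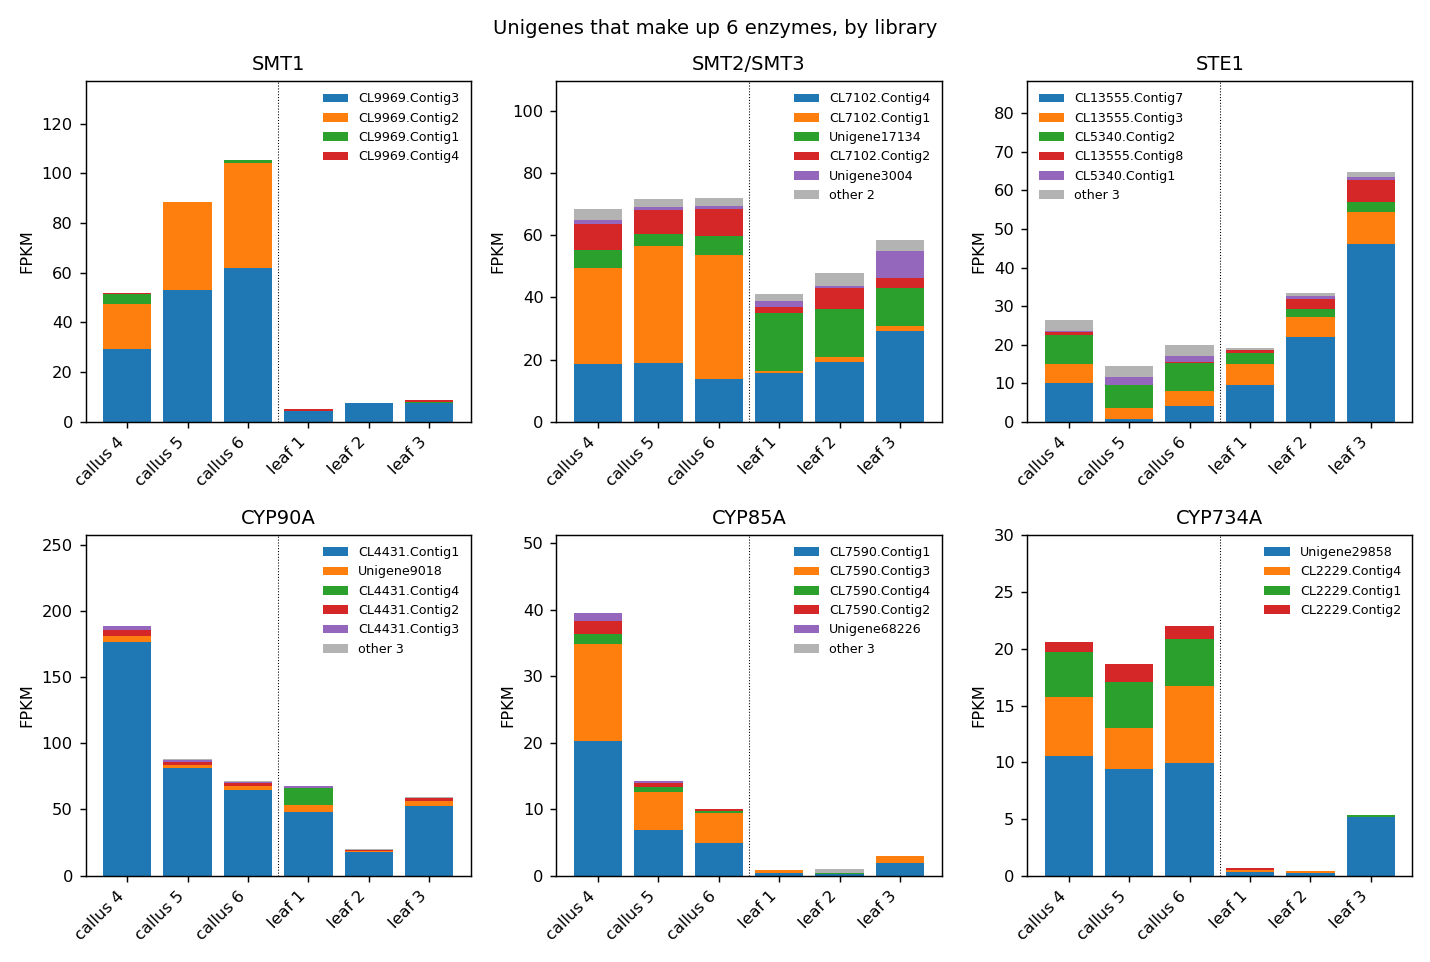
FPKM of the unigenes that make up 6 enzymes, stacked by library, with callus replicates 4 to 6 left of leaf replicates 1 to 3 and unigenes beyond the 5 most abundant drawn in grey. CL9969.Contig2 (SMT1) and CL7102.Contig1 (SMT2/SMT3) make up much of the callus bars and little or nothing of the leaf bars, CYP90A and CYP85A are highest in callus replicate 4, and leaf replicate 3 holds most of the leaf signal of CYP734A and STE1.

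The enzymes that work on the sterol ring system were higher in callus at most steps. Their 35 unigenes gave 12 calls of higher and 0 of lower among 29 tested. These are 41.4% and 0%, where 14.2% and 12.3% of all tested unigenes were called. There were 3 lower at an unadjusted p under 0.05 and 1 lower in DESeq2. SMO, the oxidase that starts removal of the methyl groups next to the sterol's hydroxyl, summed to 43.0, 52.4 and 54.3 FPKM in callus and to 23.7, 21.8 and 29.3 FPKM in leaves. No leaf library reached the lowest callus library (log2 fold change 1.02 ± 0.20, adjusted p = 0.018). Its leading unigene, Unigene17118_All, named methylsterol monooxygenase 2-2, had 19.9, 24.8 and 26.3 FPKM in callus and 10.1, 12.2 and 11.9 FPKM in leaves (log2 fold change 1.04 ± 0.25, adjusted p = 0.029). The dehydrogenase/decarboxylase 3BETAHSD/D, which completes that removal, summed to 28.5, 32.5 and 28.85 FPKM in callus and to 19.3, 19.03 and 21.0 FPKM in leaves. These libraries did not overlap either, but the log2 fold change of 0.59 ± 0.18 did not pass the test (adjusted p = 0.056). CL1654.Contig1_All, its most abundant unigene, had 14.1, 15.4 and 12.6 FPKM in callus and 5.91, 7.77 and 11.4 FPKM in leaves (log2 fold change 0.74 ± 0.32, adjusted p = 0.13).

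CPI, the cycloeucalenol cycloisomerase that opens the cyclopropane ring particular to plant sterol precursors, summed to 17.95, 23.1 and 20.9 FPKM in callus and to 7.51, 4.97 and 5.99 FPKM in leaves. All callus libraries exceeded all leaf libraries, and the log2 fold change was 1.90 ± 0.27 (adjusted p = 0.0089). Nearly all of it came from Unigene17074_All, with 17.4, 21.4 and 20.1 FPKM in callus and 4.88, 4.18 and 5.45 FPKM in leaves (log2 fold change 2.01 ± 0.27, adjusted p = 0.0082). The other CPI unigene, Unigene2348_All, had 0.59, 1.63 and 0.85 FPKM in callus and 2.63, 0.79 and 0.54 FPKM in leaves and was too low to be tested.

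CYP51G, the sterol demethylase whose fungal counterpart is the target of azole fungicides, summed to 53.7, 55.9 and 57.7 FPKM in callus and to 12.6, 14.7 and 17.5 FPKM in leaves. The spread within each tissue was small beside the gap between them (log2 fold change 1.77 ± 0.21, adjusted p = 0.0064). Unigene42527_All, which holds most of this sum, had 45.9, 45.8 and 48.3 FPKM in callus and 6.79, 8.40 and 9.63 FPKM in leaves. Its log2 fold change was 2.49 ± 0.23 (adjusted p = 0.0046), and it passed the test without any 1 library. The C14 reductase, which saturates the double bond that CYP51G leaves behind, summed to 22.3, 21.05 and 24.01 FPKM in callus and to 7.69, 6.09 and 8.62 FPKM in leaves. It too was higher in all callus libraries (log2 fold change 1.61 ± 0.26, adjusted p = 0.011). CL13002.Contig1_All made up nearly all of it, with 22.3, 21.05 and 24.01 FPKM in callus and 7.25, 5.92 and 8.62 FPKM in leaves (log2 fold change 1.62 ± 0.26, adjusted p = 0.011), and CL13002.Contig2_All was at 0 in all callus libraries and at 0.44, 0.17 and 0 FPKM in leaves.

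HYD1, the isomerase that moves the double bond of the second ring, summed to 44.7, 38.8 and 41.2 FPKM in callus and to 26.65, 22.7 and 24.05 FPKM in leaves. The tissues did not overlap, and the log2 fold change of 0.72 ± 0.20 passed the test narrowly (adjusted p = 0.046). Leaving out any 1 of the 6 libraries ended that call, with adjusted p of 0.057 to 0.15, and so did leaving out the low-count filter (0.099). CL6829.Contig1_All, the main HYD1 unigene, had 39.5, 32.7 and 34.9 FPKM in callus and 19.6, 18.01 and 18.1 FPKM in leaves (log2 fold change 0.94 ± 0.22, adjusted p = 0.028). CL6829.Contig2_All had 4.68, 5.15 and 5.75 FPKM in callus and 4.68, 2.13 and 4.88 FPKM in leaves. Unigene33274_All had 0.55, 0.97 and 0.63 FPKM in callus and 2.40, 2.53 and 1.05 FPKM in leaves, with all callus libraries below all leaf libraries, and neither of these passed the test (log2 fold changes 0.42 ± 0.43 and -1.49 ± 0.56, adjusted p = 0.50 and 0.097).

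STE1, the desaturase that puts in the double bond at which sterols differ from stanols, was the ring enzyme whose sum had a negative sign. Its 8 unigenes summed to 26.3, 14.5 and 20.0 FPKM in callus and to 19.1, 33.5 and 64.7 FPKM in leaves. Leaf replicate 1 lay among the callus libraries and leaf replicate 3 far above them (log2 fold change -1.21 ± 0.56, adjusted p = 0.16). CL13555.Contig7_All, the main contig, had 10.0, 0.86 and 4.16 FPKM in callus and 9.53, 21.9 and 46.0 FPKM in leaves. Its values overlapped as well (log2 fold change -2.33 ± 1.01, adjusted p = 0.14). CL5340.Contig2_All, 1 of the STE1 unigenes called higher, had 7.49, 5.83 and 7.28 FPKM in callus and 3.04, 2.12 and 2.57 FPKM in leaves (log2 fold change 1.42, adjusted p = 0.036). Cluster CL13555 also holds contigs with other names, and the STE1 unigenes make up 8.86% of its counts.

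Leaving out 1 callus library ended further calls among the ring enzymes. Without callus replicate 5 or 6 the adjusted p was 0.075 or 0.089 for the SMO sum, 0.056 or 0.062 for the CPI sum and 0.055 or 0.067 for the C14 reductase sum. For the CYP51G sum it was 0.052 without callus replicate 6. Unigene17118_All lost its call without each callus library (adjusted p of 0.063 to 0.13), Unigene17074_All and CL13002.Contig1_All lost theirs without callus replicate 5 or 6 (0.053 to 0.067), and CL6829.Contig1_All kept its call only without leaf replicate 1 (otherwise 0.050 to 0.10).

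DWF1 and CYP710A finish the side chain. DWF1, the reductase that yields campesterol and sitosterol, is a single unigene, Unigene36430_All, with 96.4, 142 and 151 FPKM in callus and 18.3, 37.3 and 33.2 FPKM in leaves. It had the highest mean level in callus of all enzyme sums, and its lowest callus library was well above its highest leaf library. Its log2 fold change was 2.10 ± 0.35 (adjusted p = 0.011). CYP710A, the desaturase that turns sitosterol into stigmasterol, summed to 17.1, 15.5 and 14.5 FPKM in callus and to 4.66, 1.63 and 2.86 FPKM in leaves. The 3 callus libraries were alike and all above the leaf libraries (log2 fold change 2.40 ± 0.40, adjusted p = 0.012). Its 4 contigs all belong to cluster CL9326 and share reads, and 3 of them were called higher, where 14.2% of all tested unigenes were. CL9326.Contig1_All, the most abundant one over the 6 libraries, was not, with 5.49, 4.44 and 4.29 FPKM in callus and 3.54, 0.34 and 1.28 FPKM in leaves (log2 fold change 1.49 ± 0.80, adjusted p = 0.21). Without callus replicate 5 or 6 the adjusted p was 0.058 or 0.065 for DWF1 and 0.058 or 0.064 for CYP710A.

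Of the 30 unigenes named for enzymes of brassinosteroid synthesis itself 19 were tested, and 4 were called higher and 0 lower. That is 21.1% higher, where 14.2% of all tested unigenes were, and no test compared these enzymes with the sterol enzymes. Contigs of 1 assembly cluster (CL7590, CYP85A) made 3 of the 4 calls. There were 6 higher and 0 lower at an unadjusted p under 0.05 and 5 higher and 0 lower in DESeq2. The names cover DET2, CYP90A, CYP90B, CYP90D and CYP85A, and no unigene carried the name CYP90C, the close relative of CYP90D. Among the unigenes named for DET2, the 5-alpha-reductase that prepares campesterol for the hormone pathway, only 1 of 6, Unigene78536_All, was mapped by KEGG to brassinosteroid synthesis. It had 0.50, 0.79 and 0.76 FPKM in callus and 4.70, 0.52 and 0.33 FPKM in leaves. Leaf replicate 1, the library with the largest share of peanut-named reads, was the high one, and the tissues overlapped (log2 fold change -1.44 ± 1.04, adjusted p = 0.34). The NR match of Unigene78536_All is to *Nicotiana tabacum*, and a link of its value to the peanut-named reads was not tested. The DET2 sum over all 6 was 13.6, 11.7 and 13.8 FPKM in callus and 11.95, 16.6 and 6.51 FPKM in leaves (log2 fold change 0.40 ± 0.41, adjusted p = 0.50), and its main contig, CL9562.Contig3_All, had 6.99, 5.89 and 6.24 FPKM in callus and 5.63, 6.06 and 4.90 FPKM in leaves. That contig's KEGG and NR matches are to very-long-chain enoyl-CoA reductase, a fatty acid elongation enzyme, and neither value passed the test.

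CYP90B, the hydroxylase known in Arabidopsis as DWF4 and held to be rate-limiting there, did not differ beyond its spread. It summed to 29.7, 15.3 and 18.7 FPKM in callus and to 11.95, 32.2 and 32.9 FPKM in leaves. Leaf replicate 1 was the lowest of the 6 libraries and the other leaf libraries were the highest (log2 fold change -0.31 ± 0.50, adjusted p = 0.66). CL6439.Contig2_All, its main contig, had 22.0, 12.1 and 15.4 FPKM in callus and 10.8, 25.3 and 26.0 FPKM in leaves (log2 fold change -0.33 ± 0.45, adjusted p = 0.61). CYP90D, a hydroxylase of a later step, is 1 unigene, CL11085.Contig2_All, with 1.53, 1.71 and 1.88 FPKM in callus and 1.75, 0.78 and 1.76 FPKM in leaves. It was low and overlapping in both tissues (log2 fold change 0.26 ± 0.45, adjusted p = 0.70).

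CYP90A, the oxidase known in Arabidopsis as CPD, was the most abundant brassinosteroid enzyme in both tissues. It summed to 189, 88.0 and 71.2 FPKM in callus and to 67.8, 19.8 and 59.4 FPKM in leaves. The lowest callus library was just above the highest leaf library, with callus replicate 4 far above the rest (log2 fold change 1.27 ± 0.59, adjusted p = 0.16). CL4431.Contig1_All, which holds 89.3% of this FPKM, had 176, 81.5 and 65.0 FPKM in callus and 48.2, 17.7 and 52.9 FPKM in leaves (log2 fold change 1.48 ± 0.57, adjusted p = 0.10). None of the 4 tested CYP90A unigenes was called in either direction, with 1 higher at an unadjusted p under 0.05 and 0 called by DESeq2.

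CYP85A, the oxidase of the last steps that form castasterone, had the largest fold change among the synthesis enzymes. It summed to 39.5, 14.3 and 10.1 FPKM in callus and to 0.89, 0.95 and 3.01 FPKM in leaves. All callus libraries were above all leaf libraries, although callus replicate 4 was again far above the other callus libraries (log2 fold change 3.89 ± 0.95, adjusted p = 0.032). CL7590.Contig1_All had 20.2, 6.87 and 4.93 FPKM in callus and 0.36, 0.31 and 1.88 FPKM in leaves (log2 fold change 3.68 ± 1.02, adjusted p = 0.045). Both calls were lost without leaf replicate 1 or 2 and without each callus library, with adjusted p of 0.066 to 0.083 for the sum and 0.088 to 0.12 for the contig. The size of the difference rested on single libraries as well. The log2 fold change of the CYP85A sum was 3.06 without callus replicate 4 and 5.03 without leaf replicate 3, and that of CL7590.Contig1_All was 2.79 and 5.04 in the same fits. Of the 8 unigenes of this name 4 were tested, all of cluster CL7590, and 3 were called higher, where 14.2% of all tested unigenes were. Contigs of 1 cluster share reads, so these calls are not separate results.

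CYP734A, the hydroxylase known in Arabidopsis as BAS1 that inactivates brassinosteroids, showed a large gap between the tissues. Its 4 unigenes summed to 20.6, 18.7 and 22.0 FPKM in callus and to 0.66, 0.42 and 5.36 FPKM in leaves. The callus libraries were close together, and leaf replicate 3 stood apart from the other leaf libraries. The log2 fold change of the sum was 3.36 ± 1.03 and did not pass the test (adjusted p = 0.058), while without leaf replicate 3 it was 5.37 (adjusted p = 0.011), and DESeq2 called the sum with all libraries (adjusted p = 0.0070). The high value of leaf replicate 3 came from Unigene29858_All, with 10.5, 9.40 and 9.97 FPKM in callus and 0.33, 0.24 and 5.21 FPKM in leaves (log2 fold change 2.37 ± 1.205, adjusted p = 0.19, and 5.12 with an adjusted p of 0.011 without leaf replicate 3). The contigs of cluster CL2229 were nearly absent from all leaf libraries. CL2229.Contig4_All had 5.24, 3.60 and 6.73 FPKM in callus and 0.18, 0.13 and 0 FPKM in leaves (log2 fold change 5.73 ± 1.10, adjusted p = 0.017). CL2229.Contig1_All had 3.96, 4.09 and 4.20 FPKM in callus and 0, 0 and 0.15 FPKM in leaves (log2 fold change 6.28 ± 1.43, adjusted p = 0.026). All 3 contigs of CL2229 with this name were called higher, where 14.2% of all tested unigenes were. Contigs of 1 cluster share reads, so these calls are not separate results. The calls of Contig4 and Contig1 were lost without each callus library (adjusted p of 0.055 to 0.097). The log2 fold change of CL2229.Contig4_All was 6.40 without leaf replicate 1. That of CL2229.Contig1_All was 10.58 without leaf replicate 3, the only leaf library with counts of it, and is then a fitted value and no bound.

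The remaining 31 unigenes are named as 11-beta-hydroxysteroid dehydrogenases, a family whose Arabidopsis members sit on seed oil bodies, and none of them is mapped to a sterol or brassinosteroid pathway. Together they had 85.4, 97.7 and 90.4 FPKM in callus and 27.1, 10.8 and 23.1 FPKM in leaves. The tissues did not overlap (log2 fold change 1.99 ± 0.31, adjusted p = 0.010, and 0.054 or 0.060 without callus replicate 5 or 6). Of 18 tested, 7 were called higher and 0 lower (38.9% and 0%, against 14.2% and 12.3% of all tested unigenes). There were 9 higher and 0 lower at an unadjusted p under 0.05 and 9 higher and 1 lower in DESeq2. Most of the signal in callus came from cluster CL1321, whose 15 contigs summed to between 61.55 and 73.2 FPKM in callus and between 3.42 and 15.6 FPKM in leaves, with 5 of 11 tested contigs called higher. CL1321.Contig4_All, the most abundant, had 14.9, 23.9 and 21.9 FPKM in callus and 0 counts in all leaf libraries. Against the same floor of 3 counts it was at least 438-fold higher (adjusted p = 0.0049, and just above 0.05 without callus replicate 6). That bound too takes the estimated counts as given, and the contig passed the filter through callus alone. Cluster CL1321 as a whole had a log2 fold change of 2.95 ± 0.52 (adjusted p = 0.0068).

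CL12340.Contig1_All, of another cluster of these dehydrogenases, had 3.42, 4.42 and 4.25 FPKM in callus and 0, 0.13 and 0.07 FPKM in leaves. It was nearly absent from leaves (log2 fold change 5.78 ± 1.02, adjusted p = 0.013, and 0.063 or 0.069 without callus replicate 5 or 6), and without leaf replicate 2 the log2 fold change was 7.08. Its cluster CL12340, summed over 7 contigs, did not differ beyond its spread (log2 fold change 0.50 ± 0.52, adjusted p = 0.47).

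**Figure D3:**
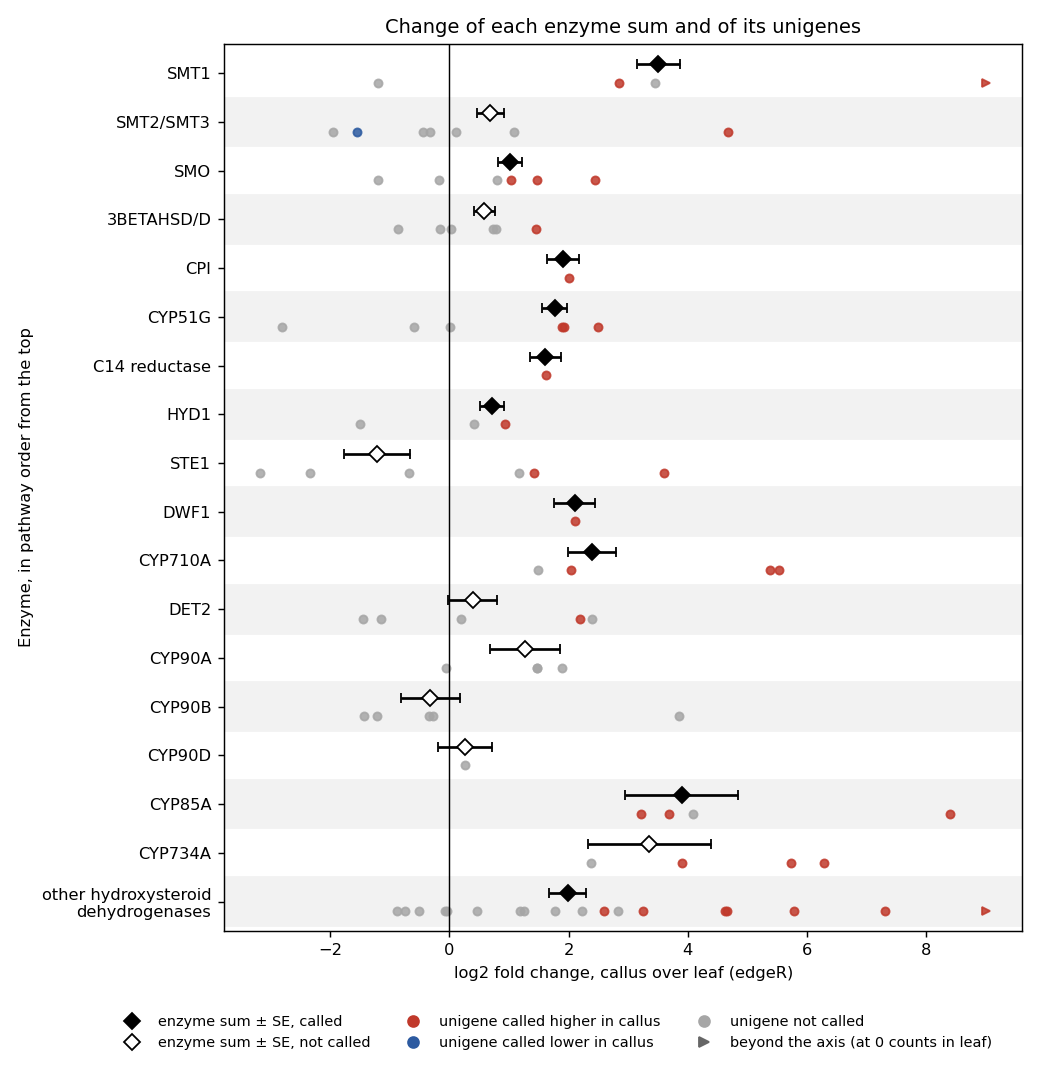
log2 fold change of callus over leaf for each enzyme sum (diamonds with SE bars, filled where called) and for each tested unigene of that enzyme (points, red where called higher and blue where called lower in callus). The 10 filled diamonds all lie to the right of 0, 1 blue point (Unigene17134_All) stands among the SMT2/SMT3 unigenes, and unigenes of 1 enzyme, such as STE1 or CYP51G, often lie on both sides of 0.

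The unigenes of an enzyme did not all move together. The called rises among the 33 unigenes had log2 fold changes from 0.94 upwards with a median of 3.22, and 4 of the 33 were at 0 counts in all leaf libraries. These 4 passed the low-count filter through their callus libraries alone. Contigs of 1 assembly cluster share sequence and so share reads, which makes their single values less certain than their sum. Summed over whole clusters, 43 clusters or single unigenes with a member were tested, and 18 were higher and 6 lower in callus, where 22% and 20.8% of all 32898 were. In 8 of the 43 the cluster also holds contigs that are not among the 116, and these gave 3 of the 6 that were lower (CL628, CL11085 and CL12615). CL11085 has 20 contigs, of which only the CYP90D unigene, with 21.9% of the counts, belongs here, and it was lower as a whole (log2 fold change -0.87 ± 0.19, adjusted p = 0.015) although that unigene's own value was positive. The other 3 were single unigenes: Unigene17134_All, the SMO unigene Unigene1015_All (log2 fold change -1.28, adjusted p = 0.034) and the HYD1 unigene Unigene33274_All (-1.57, adjusted p = 0.048), of which the last 2 were not called in the fit of unigenes.

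KEGG entries, which the choice of unigenes did not use, place 74 of the 116 in steroid biosynthesis (ko00100) or brassinosteroid biosynthesis (ko00905). Of the 61 tested among these, 25 (41%) were higher and 0 lower, where 14.2% and 12.3% of all tested unigenes were. At an unadjusted p under 0.05, for which no such share was computed, 27 were higher and 3 lower. DESeq2 called 26 higher and 1 lower. The steroid biosynthesis map held 48 of them, with 19 of 42 tested (45.2%) called higher, and the brassinosteroid map 26, with 6 of 19 tested (31.6%) called higher. Those 6 are 3 of 15 tested synthesis unigenes (20%) and 3 of 4 unigenes of the inactivating CYP734A (75%), the latter all of cluster CL2229. Of the 42 unmapped unigenes 25 were tested, and 8 (32%) were higher and 1 lower. The 116 unigenes had a median length of 1533 bases, from 208 to 5446, against 1042 over all unigenes, and longer unigenes gather more counts at the same FPKM. The NR matches named other flowering plants, most often *Actinidia chinensis*, in 22 of the 116.

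Other genes of the pathway, chosen by name, gave calls in both directions. Of 252 such unigenes 181 were tested, and 31 were higher and 16 lower in callus. These are 17.1% and 8.84%, near the 14.2% and 12.3% of all tested unigenes, and are no result about the set. Upstream, squalene epoxidase, which makes the precursor shared by sterols and saponins, gave 1 higher and 1 lower of 11 tested (9.09% each). CL5581.Contig3_All, its most abundant unigene, had 74.7, 59.0 and 54.1 FPKM in callus and 46.8, 33.7 and 28.8 FPKM in leaves. These libraries did not overlap, but the log2 fold change of 0.79 ± 0.27 did not pass the test (adjusted p = 0.077). Cycloartenol synthase, which commits that precursor to sterols, gave 2 higher and 0 lower of 19 tested (10.5% and 0%). It had 4 higher and 1 lower at an unadjusted p under 0.05 and in DESeq2 alike. Unigene5596_All, its most abundant unigene, had 54.2, 67.2 and 73.5 FPKM in callus and 8.74, 3.77 and 12.0 FPKM in leaves. The lowest callus library was several times above the highest leaf library (log2 fold change 2.99 ± 0.44, adjusted p = 0.0095). The reductase that follows STE1 (DWF5, named 7-dehydrocholesterol reductase) gave 1 higher and 1 lower of 6 tested (16.7% each).

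Enzymes that conjugate sterols also had calls in both directions. Among the acyltransferases that esterify sterols, 5 of 9 tested unigenes were higher and 2 lower (55.6% and 22.2%, against 14.2% and 12.3% of all tested unigenes). Unigene26691_All, the most abundant, had 16.7, 16.2 and 19.6 FPKM in callus and 51.6, 43.3 and 54.6 FPKM in leaves. It was lower in all callus libraries (log2 fold change -1.51 ± 0.20, adjusted p = 0.0082). The sterol glucosyltransferases gave 2 higher and 1 lower of 17 tested (11.8% and 5.88%), under the shares of all tested unigenes, which is no result about the class. Their most abundant unigene, CL3123.Contig1_All (UGT80A2), had 22.7, 22.4 and 22.4 FPKM in callus and 13.1, 10.9 and 14.6 FPKM in leaves. It was higher in all callus libraries (log2 fold change 0.80 ± 0.20, adjusted p = 0.035).

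In brassinosteroid signalling, the transcription factors of the BZR1/BES1 family, which carry the hormone's signal to genes, were called most often. Of 13 tested unigenes in 8 clusters, 8 were higher and 3 lower (61.5% and 23.1%). Unigene35879_All (BRASSINAZOLE-RESISTANT 1), the most abundant, had 48.5, 54.4 and 45.8 FPKM in callus and 91.0, 165 and 91.7 FPKM in leaves. It was among the 3 that were lower, with no overlap of the tissues (log2 fold change -1.25 ± 0.31, adjusted p = 0.032). A class of names that contain BRI1 (BRI1-like receptors, BRI1-associated receptor kinase 1 and BRI1-5 ENHANCED 1) gave 4 higher and 2 lower of 26 tested. Unigenes named BRI1-5 ENHANCED 1, a name that says neither receptor nor kinase, gave calls in both directions (Unigene70318_All and CL13104.Contig3_All higher, CL247.Contig14_All lower). The counts of this class are thus not counts of receptors and associated kinases alone. The BSK kinases gave 4 and 3 of 40, and the shaggy-related kinases, to which the inhibitor BIN2 of Arabidopsis belongs, 4 and 3 of 30. These are 15.4%, 10% and 13.3% higher and 7.69%, 7.5% and 10% lower in that order, near or under the 14.2% and 12.3% of all tested unigenes, and are no result about these classes. The BSL phosphatases gave 0 of 10, with 1 higher and 2 lower at an unadjusted p under 0.05 and 1 higher and 1 lower in DESeq2. The unigenes named for these classes were picked as the most abundant tested ones after the values had been seen.

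**Figure D4:**
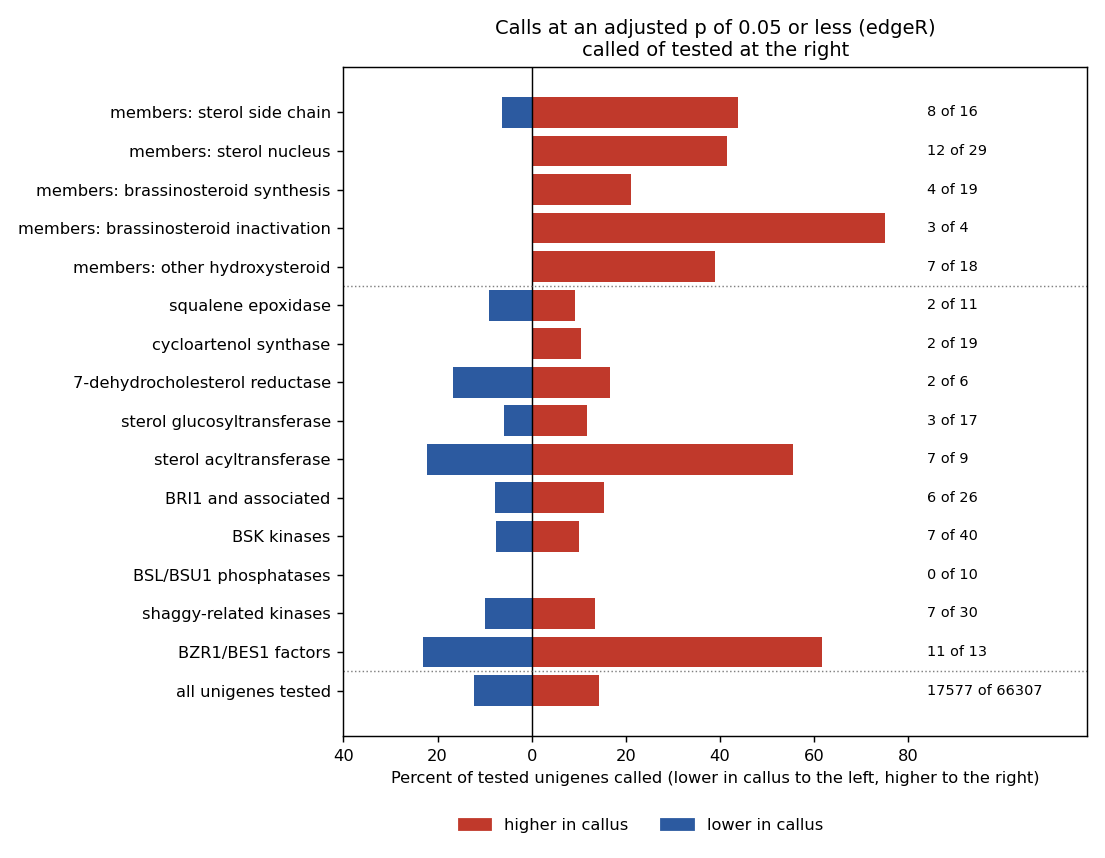
Percent of tested unigenes called (adjusted p no larger than 0.05), to the right for higher and to the left for lower in callus, for the 5 roles of the sterol and brassinosteroid enzymes (top), 10 other classes of the pathway (middle) and all 66307 tested unigenes (bottom). Calls of higher are more frequent than calls of lower in each of the 5 roles, from 4 of 19 in brassinosteroid synthesis to 3 of 4 in brassinosteroid inactivation. Of all tested unigenes 14.2% were called higher and 12.3% lower. The 3 calls in inactivation are contigs of 1 cluster (CL2229), and 3 of the 4 in synthesis are contigs of cluster CL7590. The BZR1/BES1 factors and sterol acyltransferases have calls on both sides.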

How the data were processed

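RNA-seq of 3 callus and 3 leaf libraries was used, with groups taken from the sample labels. The authors filtered the reads, assembled unigenes with Trinity and TGICL, aligned the reads with Bowtie2 2.2.5 and estimated expression with RSEM 1.2.8. In the deposited files expected counts are read pairs per unigene as RSEM estimated them, not normalized, and the deposited FPKM values divide them by length and library total. The authors' table of annotations also holds their own fold changes and p-values of callus against leaf, which were not used.

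Expected counts were rounded and tested with edgeR 4.0.16 in R 4.3.3 (quasi-likelihood test, TMM, filterByExpr, default settings) on all unigenes, with Benjamini-Hochberg adjustment over 66307 tested unigenes and an adjusted p of 0.05 or less as the call. All adjusted p values come from that test unless DESeq2 is named. The SE values are approximate: the size of the log2 fold change was divided by the square root of the F value of that test. Enzyme sums replaced their unigenes in a further fit. Where leaves had 0 counts, the fold given is a lower bound that takes 3 counts for the leaf group. It takes the counts of the single contig as RSEM estimated them, although contigs of a cluster share reads. Alternatives were DESeq2 1.42.0, limma 3.58.1 on log2(FPKM + 0.01) or with a pseudocount of 1, for unigenes above 0 in at least 3 libraries, DESeq2 size factors, no filter, other quasi-likelihood settings, sums over clusters, and each library left out. A restriction to KEGG-mapped unigenes was added after the annotation was seen. The fits were also run on simulated counts, whose spread between replicates was set below the common value of these data. That run does not show how the fits perform at the spread found here. Python 3.11.15 with pandas 2.3.3, numpy 2.4.6 and matplotlib 3.10.9 made the tables and figures.

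Members, lists and the threshold were chosen with earlier results of these data known. Unigenes were named by rule: the most abundant of each enzyme, the 5 largest called changes in each direction among those of 1 FPKM or more where higher, all unigenes of enzymes with at most 3 tested, and the most abundant one called in each direction in split enzymes. CL5340.Contig2_All, Unigene78536_All, Unigene1015_All and those of other pathway classes are outside this rule and were picked after their values were seen. Left out were 7 peanut-matching unigenes with enzyme names, whose counts summed to 0 in all callus libraries and to 56, 2 and 0 in leaf replicates 1, 2 and 3. At this depth, between 17963458 and 19444638 counts a library, low unigenes are imprecise, and 30 of the 116 were not tested. Sequences are not shown.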

Additional observations from a re-analysis of the deposited data

How the results depend on the processing

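No paired analysis was possible because leaf replicates are numbered 1 to 3 and callus replicates 4 to 6 and share no number. Of the sterol and brassinosteroid unigenes, 33 were called higher and 1 lower in callus. Without the low-count filter the counts were 16 and 0, with counts summed over clusters 18 and 6, with edgeR at an adjusted p of 0.001 and a 2-fold change 0 and 0, and over KEGG-mapped unigenes alone 25 and 0. DESeq2 called 3 lower, and limma 2 lower with either pseudocount (0.01 or 1). Leaving out 1 library gave 3 to 30 calls of higher and 0 to 2 of lower. Of the other pathway unigenes, 31 were called higher and 16 lower. Without the filter 7 were lower, DESeq2 called 31 lower, and edgeR at an adjusted p of 0.001 and a 2-fold change called 0 in either direction. Leaving out 1 library gave 5 to 36 higher and 0 to 18 lower. Enzyme sums called higher numbered 10, against 0 at the stricter threshold and 1 to 10 with 1 library left out. Those leave-outs have fewer libraries, and the cause of the other changes was not tested.

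Summing over clusters turned the sign of CL7102.Contig4_All (log2 fold change 1.02) and of CL11085.Contig2_All (-0.87), whose clusters hold other contigs as well. It also turned that of the DET2 contig CL9562.Contig3_All, from 0.20 to -0.39 (adjusted p = 0.44 for the cluster), and neither value passed the test. Dropping the filter ended the calls of Unigene17134_All, Unigene17118_All, CL6829.Contig1_All and CL7590.Contig1_All (adjusted p of 0.066 to 0.078). The 3BETAHSD/D sum was called by DESeq2 (adjusted p = 0.0045) and by limma with a pseudocount of 0.01 (0.041). DESeq2's size factors in edgeR, edgeR's robust setting and a fit without peanut-named unigenes changed no call of an enzyme sum or named unigene.

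The design had 3 libraries per tissue, and an exact permutation test of a single value could not go below a p of 0.10. The common biological coefficient of variation over all tested unigenes was 0.753. Values near 0 FPKM rest on few counts. The 30 unigenes that were not tested are not shown to be unchanged.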
